A study of Mus musculus with 3 samples.

Results

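Messenger RNA levels of 50 genes for chromatin remodellers and histone-modifying enzymes were measured in the cytosolic fraction of mouse macrophages that had met endotoxin before. The members were taken by gene symbol from a fixed list, and all 50 symbols matched 1 gene identifier each, of 55536 annotated genes and of 22015 protein-coding genes of the nuclear genome. The list holds 14 genes of the SWI/SNF complexes, 2 BET genes, 11 histone deacetylase (HDAC) genes in 3 classes, 3 genes for a corepressor, a NuRD helicase and a sirtuin, 4 acetyltransferases, 4 genes of Polycomb repressive complex 2 (PRC2), 3 histone demethylases, 3 H3K9 and 2 H3K4 methyltransferases, and 4 genes that write, copy or remove DNA methylation. The cells were primary macrophages derived in culture from the bone marrow of mice of the C57BL/6J strain. They were given Lipid A, the part of bacterial endotoxin that TLR4 senses, at 100 ng/ml for 12 hours, kept without it for 12 hours, and given 100 ng/ml again for 25 minutes. From 1 µg of RNA per library, total RNA without ribosomal RNA was sequenced in 3 libraries, replicates 1 to 3, which form the only group. The libraries come from separate biosamples with the same donor entry, so the spread between them may be technical. No untreated, singly stimulated or nuclear libraries were analysed here, so every value below is a level within this state and none shows an effect of Lipid A.

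Chromatin enzymes set how accessible a gene is. SWI/SNF complexes use ATP to slide or evict nucleosomes and are built around 1 of a pair of alternative ATPases, with an ARID or PBRM1 subunit that distinguishes the BAF and PBAF forms. Acetyltransferases such as p300 add acetyl groups that BET proteins read, deacetylases remove them in company with corepressors such as NCOR1, and methyltransferases and demethylases write and erase marks that hold genes on or off. In macrophages, SWI/SNF and BET proteins are known for their part in inducing secondary inflammatory genes, and NCOR1 and HDAC3 for regulating inflammatory genes. EZH2 and KDM6B are known for adding and removing methyl groups at H3K27.

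The libraries held 55517261, 21311556 and 45635014 expected counts in replicates 1, 2 and 3, of which the members took 254922, 107698 and 209085. Replicate 2 is therefore the least precise, and 3 counts, the limit that a count of 0 allows, correspond there to 0.141 CPM (counts scaled to a fixed library total), for counting error only. All 10 macrophage markers had at least 1 TPM in every library, where TPM is a level per transcript length, scaled to the same total in each library. Of 27 markers of T, B, natural killer, dendritic, stromal, erythroid and mast cells and neutrophils, 0 reached it in every library, with summed levels of 0.920 to 1.31 TPM and 4 markers at 0 counts in all libraries. The libraries differed in nuclear noncoding RNAs such as Malat1, which had 1156, 976 and 246 TPM in replicates 1, 2 and 3, although the fraction is labelled cytosolic. Protein-coding genes took 29.6%, 40.4% and 34.8% of all TPM, so TPM of every coding gene depends on how much noncoding RNA a library holds, and library differences are given below in coding CPM, which scales counts to the summed counts of coding genes.

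Nearly the whole set was detected. Of the 50 members, 48 had at least 1 TPM in all 3 libraries, where 42.1% of protein-coding genes did. In bulk libraries such as these, a low level from few cells and a low level in every cell cannot be told apart. At 5 TPM the count was 38 members, against 27.7% of protein-coding genes, and at 10 TPM 23 members, against 18.7%. The median over members was 10.1, 13.9 and 10.01 TPM in replicates 1, 2 and 3 (11.3 ± 2.20 TPM, SD, n = 3). For the 9275 protein-coding genes at 1 TPM in all libraries the median was 8.79, 11.6 and 9.37 TPM (9.90 ± 1.46 TPM), so the members' median was the higher one in 3 of 3 libraries, by less than 1 SD on average. Only 1 member, Brd2, stood at or above the 90th percentile of those expressed genes, 9 stood at or above the 75th and 28 at or above the 50th. The transcripts are long, with a median effective length of 3703 bases for members and 2297 bases for expressed coding genes, so a member at a given TPM carried more counts, at a median expected count of 2326 for members and 1306 for expressed coding genes.

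**Figure D1:**
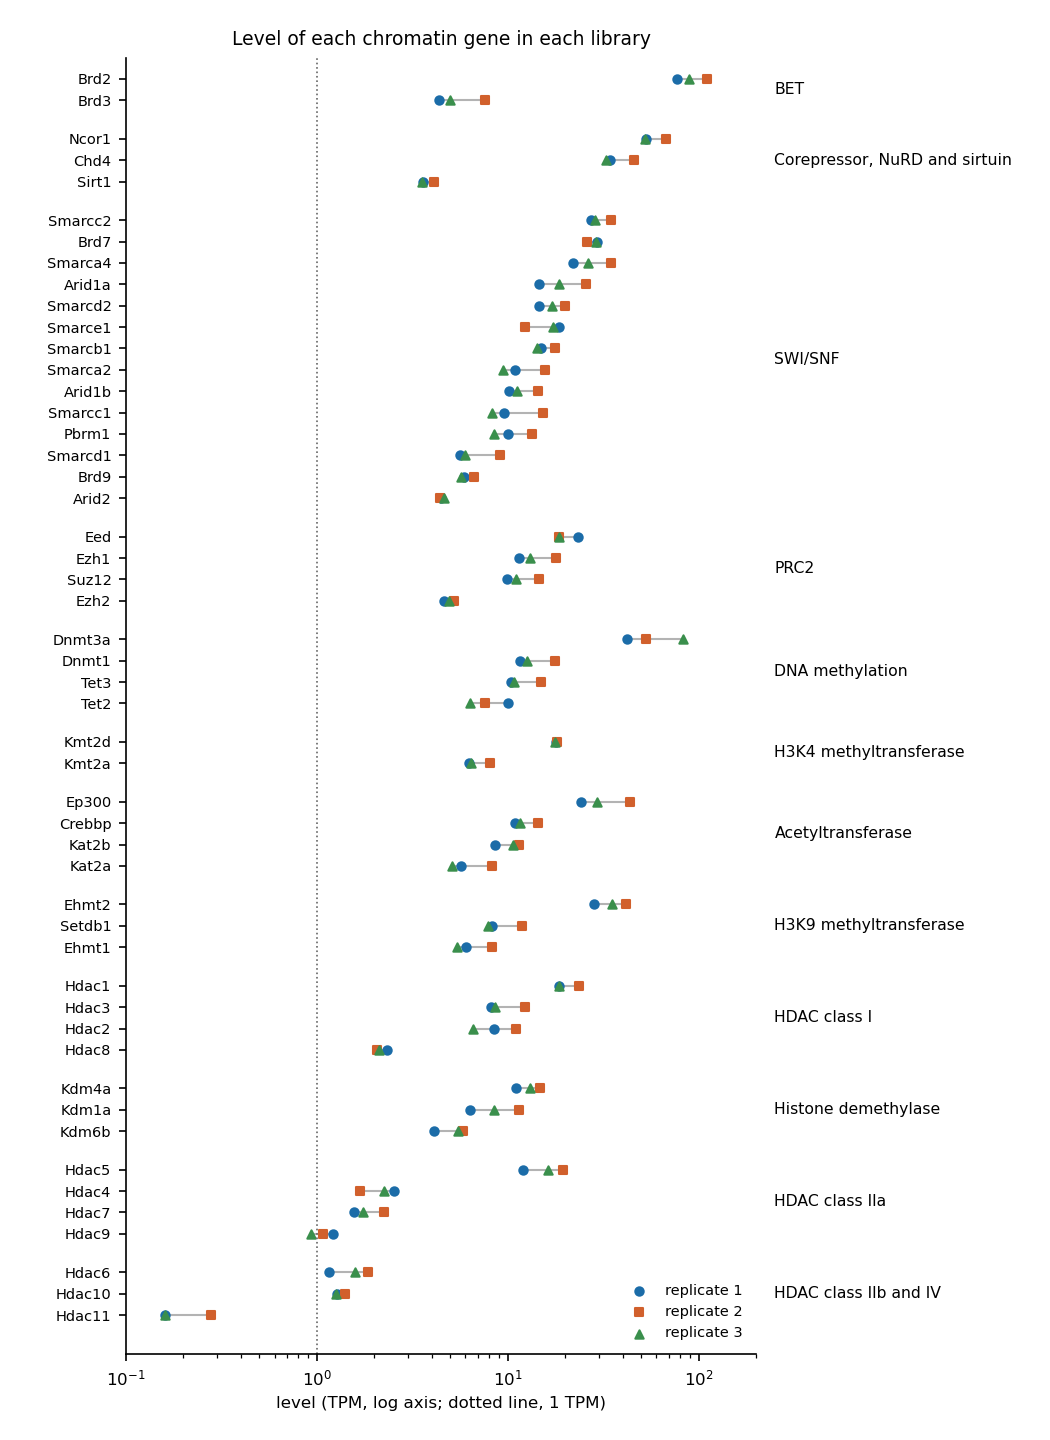
Level of each of the 50 genes in TPM on a log axis, by class, with 1 symbol per library joined by a grey line and a dotted line at 1 TPM. Most genes lie between 5 and 50 TPM with libraries close together, Brd2 is highest at 77.2 to 110.15 TPM, and the low end is held by deacetylases, with Hdac11 at 0.160 to 0.280 TPM.

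The order of the members was clear only at a few points. Ranked by mean TPM, 11 of the 49 neighbouring steps kept their order in all 3 libraries, and 5 were larger than the summed SDs of the neighbours. Those 5 were Ncor1 over Chd4, Arid2 over Sirt1, Sirt1 over Hdac8, Hdac10 over Hdac9 and Hdac9 over Hdac11. The other neighbours did not differ beyond their spread. By the read-based table Sirt1 exceeded Arid2 in replicates 1 and 2, at 3.53 and 2.62 TPM against 3.30 and 2.33 TPM. Over coding models alone Hdac10 had 1.02, 0.13 and 1.11 TPM in replicates 1, 2 and 3, and Hdac9 had 1.10, 1.07 and 0.93 TPM. Sirt1 had 1.81, 1.97 and 3.10 TPM over coding models and Hdac8 2.10, 2.06 and 2.10 TPM, so Sirt1 was the lower in replicates 1 and 2. So the order of Arid2 and Sirt1 depends on the table. The orders of Sirt1 and Hdac8 and of Hdac10 and Hdac9 depend on the models counted. Ratios between named pairs were taken within each library. Of 22 pairs of paralogs, of genes of the same complex or kind, or of opposing enzymes, 21 had the same sign in all 3 libraries, and 15 had a mean beyond 2-fold. With 3 libraries the exact two-sided sign-flip test cannot give a p below 0.25, and it gave 0.25 for each of the 21, so these ratios are descriptions with their spread.

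**Figure D2:**
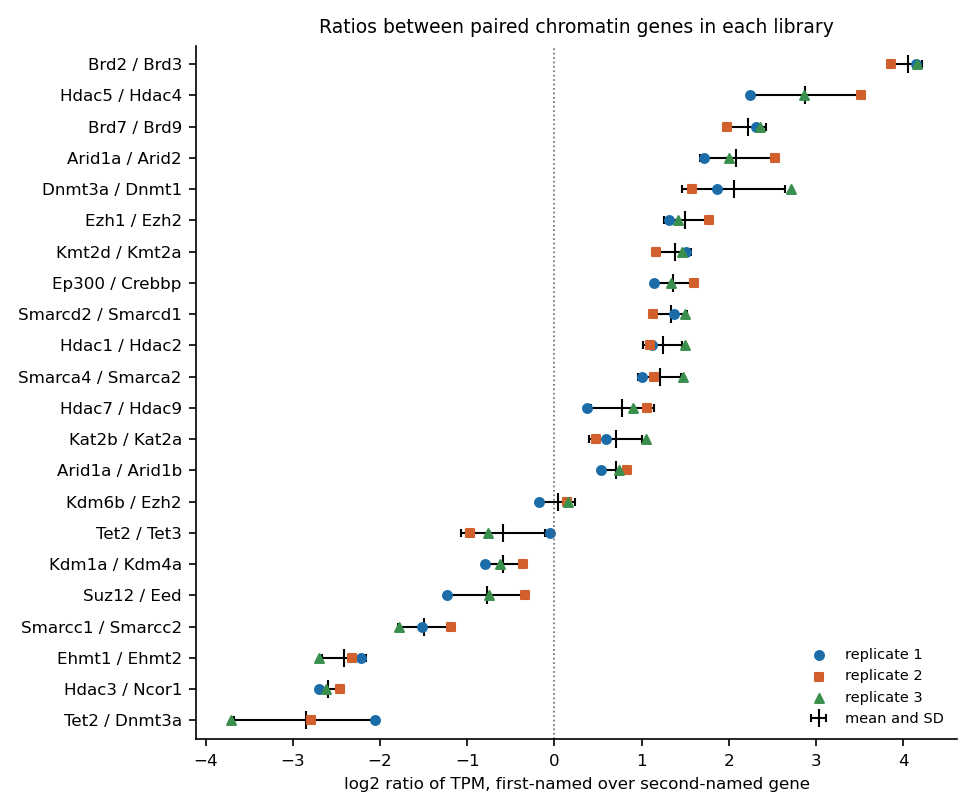
Log2 ratio of TPM for 22 gene pairs, the first-named gene over the second-named, with 1 symbol per library and the mean and SD in black; the dotted line marks equal levels. Brd2 over Brd3 is the widest at 4.05, the Kdm6b to Ezh2 ratio straddles 0, and the widest spread is that of Tet2 over Dnmt3a.

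Of the SWI/SNF genes, the ATPase Smarca4 (BRG1) was the more abundant of the alternative ATPases. Smarca4 (ENSMUSG00000032187.16, mm10 chromosome 9, 21616169 to 21704230, plus strand) had 21.9, 34.6 and 26.2 TPM in replicates 1, 2 and 3, and Smarca2 (BRM, chromosome 19, 26605050 to 26778322, plus strand) had 10.9, 15.7 and 9.41 TPM. The log2 ratio of Smarca4 over Smarca2 was 1.21 ± 0.24 (SD, n = 3), a 2.31-fold difference, and the levels of the paralogs did not overlap. Counting only transcript models that code for protein gave a ratio of 2.34 ± 0.38. Coding models held 53.3%, 37.4% and 47.0% of the TPM of Smarca2 in replicates 1, 2 and 3 and 100% of that of Smarca4. The remainder of Smarca2 was mostly in models annotated for nonsense-mediated decay, at 30.9%, 41.3% and 39.9%.

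The scaffold subunits that hold the complex together were also unequal, with Smarcc2 (BAF170) above Smarcc1 (BAF155). Smarcc1 had 9.59, 15.4 and 8.30 TPM and Smarcc2 27.4, 34.9 and 28.5 TPM, a log2 ratio of Smarcc1 over Smarcc2 of -1.49 ± 0.30 (SD, n = 3). Smarcc1 shares exonic sequence with Dhx30 on the other strand, and since the use of strand in counting is not given in the sources used here, reads of the overlap cannot be told apart. Smarcd2, the accessory subunit known for its part in granulocyte development, had 14.6, 19.9 and 17.1 TPM, and its paralog Smarcd1 had 5.65, 9.09 and 6.01 TPM. Their log2 ratio was 1.33 ± 0.19, and the groups of values did not overlap. The core subunits present in every canonical form were at similar levels in total TPM. Smarcb1 had 15.0, 17.6 and 14.3 TPM and Smarce1 18.6, 12.2 and 17.3 TPM. Coding models held 56.6%, 96.8% and 66.2% of the TPM of Smarce1 in replicates 1, 2 and 3. Over coding models alone Smarce1 was below Smarcb1 in every library, at 10.53, 11.86 and 11.44 TPM against 14, 17.16 and 13.95 TPM.

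The BAF subunit Arid1a stood above the PBAF subunits Arid2 and Pbrm1 in every library. Brd7, also of PBAF, stood above all 3 in total TPM, but over coding models alone it was below Arid1a in every library, at 12.2, 15.5 and 12.4 TPM for Brd7 and 14.1, 25.6 and 18.2 TPM for Arid1a. Arid1a (chromosome 4, 133679008 to 133756769, minus strand), the subunit most often lost in tumours, had 14.6, 25.6 and 18.6 TPM, and the alternative BAF subunit Arid1b had 10.1, 14.3 and 11.1 TPM, a log2 ratio of 0.70 ± 0.16 (SD, n = 3). The PBAF subunit Arid2 had 4.45, 4.42 and 4.64 TPM, and Arid1a exceeded it by 2.08 ± 0.42 on the log2 scale. Pbrm1, the polybromo subunit of PBAF, had 10.1, 13.4 and 8.49 TPM. The bromodomain subunit gene Brd7 had 29.3, 26.1 and 29.2 TPM, against 5.87, 6.63 and 5.68 TPM for Brd9, the bromodomain subunit of the noncanonical BAF form. The log2 ratio of Brd7 over Brd9 was 2.22 ± 0.21, and 1.33 ± 0.05 over coding models alone. A short processed transcript of Brd7 with no coding sequence, Brd7-203 of 511 bases, took 46.7%, 32.1% and 46.9% of the TPM of the gene, from 358, 62.7 and 275 expected counts, while the coding model Brd7-201 took 3763, 1413 and 2759 counts.

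Both BET genes encode readers of acetylated histones, and Brd2 was far the more abundant. Brd2 (ENSMUSG00000024335.20, chromosome 17, 34112023 to 34122634, minus strand) had 77.2, 110.15 and 89.3 TPM in replicates 1, 2 and 3, the highest level among the members in each library of the alignment-based table. By the read-based table Dnmt3a, at 22.4 TPM, exceeded Brd2, at 19.7 TPM, in replicate 3. Brd3 had 4.36, 7.60 and 5.01 TPM, so Brd2 was 16.6-fold higher, a log2 ratio of 4.05 ± 0.17 (SD, n = 3). The main coding model Brd2-202 held 54.1%, 47.9% and 50.5% of the TPM of Brd2 (41.5%, 31.0% and 45.1% by the read-based table). Brd2-207, a longer model of 4520 bases annotated for nonsense-mediated decay and picked out after its values were seen, held 18.3%, 19.4% and 25.1%. Brd2 overlaps an exon of H2-DMa on the other strand and took fractional counts in some libraries, so part of its level may be reads of other genes, and this was not tested. Over coding models alone the log2 ratio of Brd2 over Brd3 was 3.46 ± 0.22.

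Of the HDAC genes, the highest was Hdac1, near 20 TPM, and the lowest was Hdac11, below 1 TPM. Among the class I enzymes, which act in nuclear corepressor complexes, Hdac1 had 18.6, 23.6 and 18.5 TPM and Hdac2 8.52, 11.0 and 6.55 TPM, a log2 ratio of 1.24 ± 0.22 (SD, n = 3) with no overlap. Hdac3 had 8.14, 12.4 and 8.54 TPM, and Hdac8 had 2.32, 2.06 and 2.11 TPM. Some reads of Hdac1 were divided between genes by the authors' model, which leaves its level uncertain to that extent.

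Ncor1 and Chd4 were the most abundant genes of the deacetylase complexes in the set. NCOR1 is the corepressor that binds and activates HDAC3, and Ncor1 (chromosome 11, 62316426 to 62458541, minus strand) had 53.1, 67.9 and 52.4 TPM. The log2 ratio of Hdac3 over Ncor1 was -2.59 ± 0.13 (SD, n = 3), the narrowest spread among the 22 pairs, and -3.49 when counts were not divided by length. Ncor1 overlaps exons of Ttc19 and Pigl on the other strand. Chd4, the ATPase of the NuRD complex that also carries HDAC1 and HDAC2, had 34.5, 45.9 and 32.9 TPM. The NAD-dependent deacetylase gene Sirt1 was far lower, at 3.76 ± 0.32 TPM. Coding models held 50.6%, 47.8% and 87.1% of the TPM of Sirt1 in replicates 1, 2 and 3.

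The class IIa deacetylases, which shuttle between nucleus and cytoplasm and recruit other enzymes more than they deacetylate, were led by Hdac5. It had 12.1, 19.4 and 16.3 TPM in replicates 1, 2 and 3, against 2.54, 1.69 and 2.24 TPM for Hdac4, a log2 ratio of 2.87 ± 0.64 (SD, n = 3) or 2.22 ± 0.41 over coding models. Hdac7, which overlaps Slc48a1 on the other strand, had 1.57, 2.26 and 1.75 TPM. Hdac9 had 1.21, 1.08 and 0.930 TPM and was the 49th of the 50 members by mean level. The log2 ratio of Hdac7 over Hdac9 was 0.78 ± 0.36, higher for Hdac7 in all 3 libraries, but in 2 of 3 by the read-based table (0.33 ± 0.30). By mean level the class IIb genes lay between Hdac7 and Hdac9, with 1.53 ± 0.35 TPM for Hdac6, the tubulin deacetylase, and 1.32 ± 0.08 TPM for Hdac10. These values cover all models. Coding models held 79.1%, 9.22% and 88.1% of the TPM of Hdac10 in replicates 1, 2 and 3. For Hdac6 they held 97.4%, 85.9% and 74.8%. Hdac11, the only class IV gene, had 0.160, 0.280 and 0.160 TPM from 31, 16 and 25 counts, above the limit of 3 counts in each library but too few for any finer reading.

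The histone acetyltransferases were led by Ep300. The encoded p300 and its paralog CBP acetylate H3K27 at enhancers, and Ep300 (chromosome 15, 81585351 to 81652077, plus strand) had 24.1, 43.9 and 29.4 TPM, against 10.95, 14.5 and 11.6 TPM for Crebbp (chromosome 16, 4081328 to 4213997, minus strand). Ep300 over Crebbp gave a log2 ratio of 1.36 ± 0.23 (SD, n = 3), and 0.81 ± 0.15 over coding models. Retained-intron models held 29.4%, 35.1% and 32.2% of the TPM of Ep300. The GCN5-type enzymes were lower, with 8.57, 11.5 and 10.6 TPM for Kat2b (PCAF) and 5.70, 8.26 and 5.12 TPM for Kat2a (GCN5), a log2 ratio of 0.71 ± 0.30.

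Both Crebbp and Kat2a were shared between coding models that differ by 1 stretch. The stretches are shown in capitals with 20 bases of flanking coding sequence in lower case, 5′ to 3′ on the transcribed minus strand of mm10, from the GENCODE M21 models, since they are what separates the pairs of models. The 114 bases of Crebbp lie at chr16:4137366-4137479 and start at base 1214 of the coding sequence, and Crebbp-205 skips them. The 3 bases of Kat2a lie at chr11:100708983-100708985, and Kat2a-202 holds them.
Crebbp-201: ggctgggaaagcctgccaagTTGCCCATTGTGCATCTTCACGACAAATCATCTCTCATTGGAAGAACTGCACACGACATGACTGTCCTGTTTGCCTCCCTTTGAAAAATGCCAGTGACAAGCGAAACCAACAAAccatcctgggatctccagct
Kat2a-202: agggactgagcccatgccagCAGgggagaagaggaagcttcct
Crebbp-201, with the stretch, held 62.6%, 66.4% and 66.7% of the TPM of the gene in replicates 1, 2 and 3, and Crebbp-205, without it, 24.0%, 33.0% and 29.9%. The read-based table gave 36.3%, 41.2% and 41.0% for Crebbp-201 and 36.6%, 36.2% and 42.5% for Crebbp-205, so their order depends on the table. The models also differ in total length, at 10820 and 7749 bases, so their shares do not rest on this stretch alone. The Kat2a models differ by these 3 bases in otherwise identical coding sequence. Kat2a-202 held 29.8%, 33.7% and 37.5% and Kat2a-201, without them, 61.2%, 60.7% and 56.2%.

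In PRC2, which trimethylates H3K27, the catalytic subunit of resting cells, Ezh1, exceeded that of dividing cells, Ezh2. Ezh1 had 11.5, 17.96 and 13.1 TPM and Ezh2 4.63, 5.26 and 4.90 TPM, a log2 ratio of 1.498 ± 0.241 (SD, n = 3) and of 1.89 ± 0.04 over coding models. Of 15 genes of proliferation, 11 had at least 1 TPM in all libraries and 2 had at least 10 TPM, with Pcna the highest at 66.2, 99.8 and 71.3 TPM. The core subunits Suz12 and Eed had 9.97, 14.6 and 11.1 TPM and 23.5, 18.5 and 18.5 TPM. Their log2 ratio, Suz12 over Eed, was -0.77 ± 0.45, shrank to -0.26 ± 0.11 over coding models and turned to 1.01 when counts were not divided by length, and the retained-intron share of Eed went between 12.8% and 48.3% across libraries.

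The H3K27 demethylase gene Kdm6b (JMJD3), known as an early target of endotoxin in macrophages, stood at the level of Ezh2. It had 4.10, 5.83 and 5.46 TPM, and the log2 ratio of Kdm6b over Ezh2 was 0.04 ± 0.19 (SD, n = 3), above 0 in 2 of 3 libraries (exact two-sided sign-flip test, p = 1). It was the only one of the 22 pairs without a common sign in the alignment-based table. Over coding models it was 0.38 ± 0.23 and above 0 in 3 of 3 libraries. Kdm6b overlaps the antisense gene Kdm6bos. The H3K9 and H3K36 demethylase gene Kdm4a had 11.0, 14.8 and 13.1 TPM, and Kdm1a (LSD1, chromosome 4, 136550540 to 136602723, minus strand), which removes methyl groups from H3K4 with the CoREST corepressor, had 6.35, 11.4 and 8.47 TPM. Kdm1a over Kdm4a gave a log2 ratio of -0.59 ± 0.22.

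Kdm1a was divided about evenly between a model with and a model without a 60-base exon at chr4:136582040-136582099, which starts at base 521 of the coding sequence of Kdm1a-202. The exon is shown in capitals with 20 flanking coding bases, 5′ to 3′ on the minus strand of mm10, because its presence is the whole coding difference between the models.
Kdm1a-202: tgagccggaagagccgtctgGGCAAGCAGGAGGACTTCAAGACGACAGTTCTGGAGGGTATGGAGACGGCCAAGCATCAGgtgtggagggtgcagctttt
Kdm1a-202, with the exon, held 44.0%, 32.1% and 53.1% of the TPM of the gene in replicates 1, 2 and 3, and Kdm1a-203, without it, 41.3%, 46.3% and 44.7%. The model with the exon was ahead in replicates 1 and 3 and behind in replicate 2, so no order of the forms is given.

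Among the writers of repressive H3K9 methylation, Ehmt2 (G9a) was well above its partner Ehmt1 (GLP), although the proteins act as a heterodimer. Ehmt2 (chromosome 17, 34898469 to 34914052, plus strand) had 28.2, 41.6 and 35.4 TPM and Ehmt1 6.03, 8.31 and 5.43 TPM, a log2 ratio of Ehmt1 over Ehmt2 of -2.42 ± 0.25 (SD, n = 3) or -2.50 ± 0.16 over coding models. Setdb1, which silences endogenous retroviruses, had 9.35 ± 2.22 TPM and overlaps Cers2 on the other strand. Of the writers of H3K4 methylation, the enhancer-type enzyme Kmt2d (MLL4) had 17.9, 18.2 and 17.8 TPM, and Kmt2a (MLL1) had 6.29, 8.08 and 6.41 TPM. Their log2 ratio was 1.38 ± 0.18 with no overlap. Kmt2a and Kmt2d have the longest transcripts of the set, and both had fractional counts, from reads divided between genes.

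The DNA methyltransferase gene Dnmt3a was among the 3 most abundant members and had the widest range of coding CPM of the 20 most abundant. It exceeded Ncor1 in replicate 3 alone. DNMT3A adds methyl groups to unmethylated sites, DNMT1 copies them after replication and TET enzymes oxidise them. Dnmt3a (ENSMUSG00000020661.15, chromosome 12, 3806007 to 3914443, plus strand) had 42.1, 52.7 and 83.0 TPM in replicates 1, 2 and 3, with the authors' credibility bounds of TPM at 40.2 to 44.6, 48.6 to 57.4 and 78.6 to 86.3, which did not overlap. The bounds overlapped in no pair of libraries for 16 of the 50 members. The share over all genes was not taken, and TPM depends on the noncoding RNA of a library. Nothing particular to the members or to Dnmt3a is therefore read from this count. In coding CPM Dnmt3a had 363, 295 and 438, so replicates 1 and 2 changed order on that scale. Dnmt1 had 11.55, 17.6 and 12.6 TPM, and the log2 ratio of Dnmt3a over Dnmt1 was 2.05 ± 0.59 (SD, n = 3). Tet3 had 10.4, 14.9 and 10.8 TPM and Tet2, the family member most often mutated in blood cancers, 10.1, 7.62 and 6.34 TPM. The log2 ratio of Tet2 over Tet3 was -0.59 ± 0.48, from nearly equal in replicate 1 (-0.05) to -0.97 in replicate 2. By the read-based table Tet2 exceeded Tet3 in replicate 1, at 8.06 and 7.38 TPM, and was lower in the other libraries. Over coding models alone Tet2 was below Tet3 in every library, at 5.76 and 9.75 TPM in replicate 1, with a log2 ratio of -0.98 ± 0.22. Tet2 over Dnmt3a was -2.85 ± 0.83 and ran between -2.06 in replicate 1 and -3.71 in replicate 3.

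The transcript models of Dnmt3a also took uneven shares of it. The model Dnmt3a-205, whose 2067 coding bases are a shortened form of the 2724 of Dnmt3a-201 and Dnmt3a-218, held 16.3%, 31.6% and 26.5% of the TPM of the gene. The full-length model Dnmt3a-201 held 25.2%, 20.8% and 8.92% (7.54%, 7.78% and 3.69% by the read-based table), and Dnmt3a-218 19.7%, 16.1% and 20.8%. A retained-intron fragment of 369 bases, Dnmt3a-214, had 10.4, 11.9 and 28.9 TPM from 143, 44.8 and 320 counts. These models were picked out after their values were seen, and Dnmt3a overlaps its antisense gene Dnmt3aos. Without the noncoding models, Dnmt3a still had 30.1, 40.0 and 52.4 TPM in replicates 1, 2 and 3.

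The members' median spread between libraries was below that of coding genes in general. Beyond counting error, the spread between libraries, as a median biological coefficient of variation, was 0.144 over the 50 members and 0.166 over 11149 coding genes (edgeR, intercept only). The median range between the highest and lowest library was 0.262 on the log2 scale of coding CPM for members and 0.331 for expressed coding genes. The members' higher counts move with this, and its part in the difference was not tested. The 10 members with the widest range were Hdac4 (0.90), Hdac9 (0.79), Smarcc1 (0.63), Hdac2 (0.62), Hdac8 (0.59), Dnmt3a (0.57), Hdac10 (0.53), Tet2 (0.49), Kat2a (0.45) and Smarce1 (0.44).

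Of these 10 genes, 5 are deacetylases, which make up 11 of the 50 members, and 7 were highest in replicate 1, as were 18 of the 50 members and 47.5% of coding genes. Hdac4 had 23.4, 12.5 and 19.5 coding CPM in replicates 1, 2 and 3, and Hdac9 9.22, 6.13 and 5.30. Hdac8 had 7.30, 4.80 and 5.87 coding CPM and Hdac10 5.13, 3.53 and 4.36, so these 4 genes share a high value in replicate 1. Hdac8 and Hdac10 rest on 94 and 69 counts in replicate 2, the shallowest library. Hdac2 differed from them, with 28.9, 26.8 and 18.7 coding CPM and its low value in replicate 3.

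The other wide members fell into several patterns. Smarcc1 had 84.9, 101.0 and 65.1 coding CPM and Kat2a 30.4, 31.8 and 23.3, both highest in replicate 2 and lowest in replicate 3. Tet2 stood apart in replicate 1, at 110.4, 78.8 and 78.5 coding CPM. Smarce1 had 59.8, 44.1 and 52.8 coding CPM, with its low value in replicate 2, and Dnmt3a 363, 295 and 438. Brd2, the most abundant member, was even on this scale at 399.5, 409.5 and 441.3 coding CPM, although its TPM ranged more widely.

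The members as a whole stayed close to 0 between libraries. Each library was set against the average of the remaining ones for the 49 members that averaged 1 TPM or more. In replicate 3, 34 members were lower, where 64.4% of coding genes were, and 15 were higher, where 35.6% were, so the members' count is near that of coding genes in general. The median for replicate 3, as a log2 ratio, was -0.12 over members and -0.09 over coding genes. In replicate 1, 31 of the 49 were higher (67.2% of coding genes) and 18 lower (32.8%), with a median of 0.05, and in replicate 2, 31 were higher (46.8% of coding genes) and 18 lower (53.2%), with a median of 0.06. The sign for replicate 1 turned to -0.07 with TMM scaling and -0.08 with DESeq2 size factors, and that for replicate 3 shrank to -0.02 with both, so no library is given as the lowest. The 3 demethylases were lower in replicate 1 and higher in replicate 3 than in the others in 3 of 3 genes, with medians of -0.30 and 0.19, and were so with TMM scaling too. They are 1 of 12 classes, and Kdm4a hardly moved, at -0.05 and 0.07. Further demethylase genes outside the members did not share this. The 11 of these 12 genes at 1 TPM in every library were all lower in replicate 3 than the average of the others, in coding CPM.

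Other gene lists moved between the same libraries. Nuclear noncoding RNAs had a median log2 ratio of 1.26 in replicate 1, with 8 of 9 higher there, of -0.53 in replicate 2 and of -0.92 in replicate 3. The 13 proliferation genes at that level were all higher in replicate 2 (median 0.38) and all lower in replicate 3 (-0.40). The members' medians had the same signs, at 0.06 and -0.12, so this direction was not particular to Dnmt1, at 108, 120.5 and 102.6 coding CPM. Ezh2 did not share it, at 13.7, 13.0 and 13.4 coding CPM. The part of these lists in the members' library differences was not tested.

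**Figure D3:**
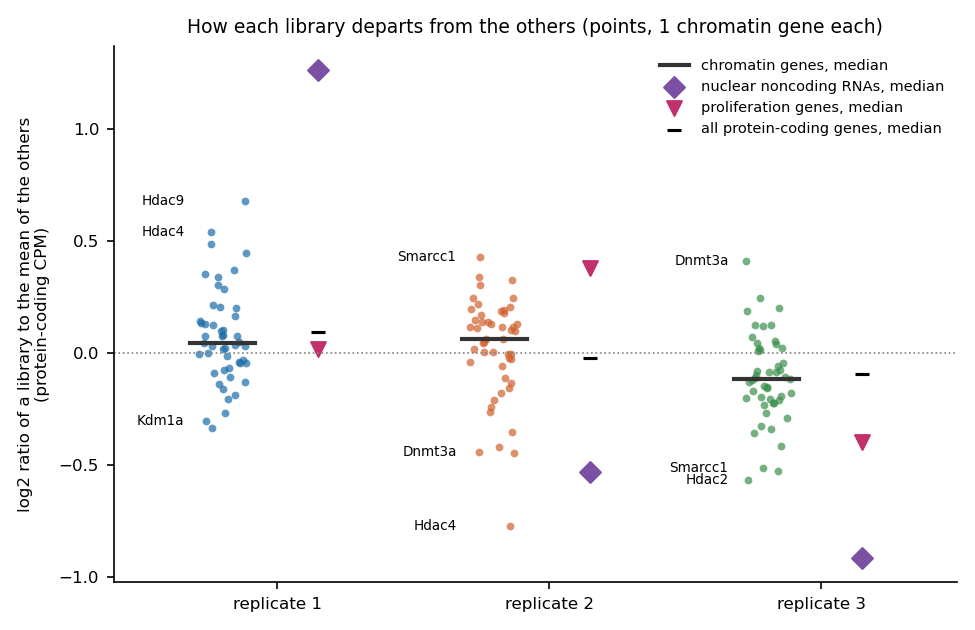
Coding CPM of a library over the average of the remaining libraries, as a log2 ratio, with 1 point per chromatin gene (49 genes that averaged 1 TPM or more), a bar at their median, and the medians of nuclear noncoding RNAs, proliferation genes and all protein-coding genes to the right. The chromatin genes stay near 0 in each library, with Hdac4 at 0.54 in replicate 1 and -0.77 in replicate 2, while the nuclear noncoding RNAs run from 1.26 in replicate 1 to -0.92 in replicate 3.

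Transcript models that do not code for protein took a larger share of the members' summed TPM than of that of coding genes at large. Coding models held 79.7%, 85.4% and 82.1% of the members' TPM in replicates 1, 2 and 3 (82.4 ± 2.83%, SD, n = 3), and 91.8 ± 0.89% over all protein-coding genes. Retained-intron models made up most of the remainder, at 12.1%, 7.89% and 9.39% for members and 4.48%, 4.09% and 3.19% for all protein-coding genes. Gene by gene the gap was smaller. The median coding share was 90.7%, 96.8% and 97.9% over members in replicates 1, 2 and 3. Over protein-coding genes at 1 TPM in all libraries it was 95.2%, 98.7% and 98.3%. In expected counts the picture differed, with coding models at 94.6 ± 0.58% for members and 95.7 ± 0.71% for all protein-coding genes, and retained-intron models at 2.58%, 1.09% and 1.06% for members and 2.66%, 1.77% and 1.49% for all protein-coding genes. TPM divides counts by length, and many of these models are short fragments such as Brd7-203 and Dnmt3a-214. The larger retained-intron share of the members holds per length and not per read. In counts the coding share was still slightly lower for members in each library, at 94.0%, 95.2% and 94.7% against 94.9%, 95.9% and 96.3%. Models annotated for nonsense-mediated decay held 3.42 ± 0.51% of the members' counts and 1.39 ± 0.04% of those of all protein-coding genes.

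Retained-intron shares peaked in replicate 1 for most members, as they did for most coding genes. Of 41 members with such a model, 35 had its highest share in replicate 1, where 72.8% of coding genes did, and 33 of 41 by the read-based table, where 80.1% did. Tet2 gave 36.3%, 15.1% and 10.7% of its TPM to retained introns in replicates 1, 2 and 3, and Eed 48.3%, 12.8% and 32.5% (57.0%, 49.5% and 40.6% by the read-based table). Ep300 and Dnmt3a were not highest in replicate 1, with 29.4%, 35.1% and 32.2% for Ep300 and 27.9%, 22.8% and 34.9% for Dnmt3a. Nuclear noncoding RNA moves with replicate 1 as given above, and its part in these shares was not tested.

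**Figure D4:**
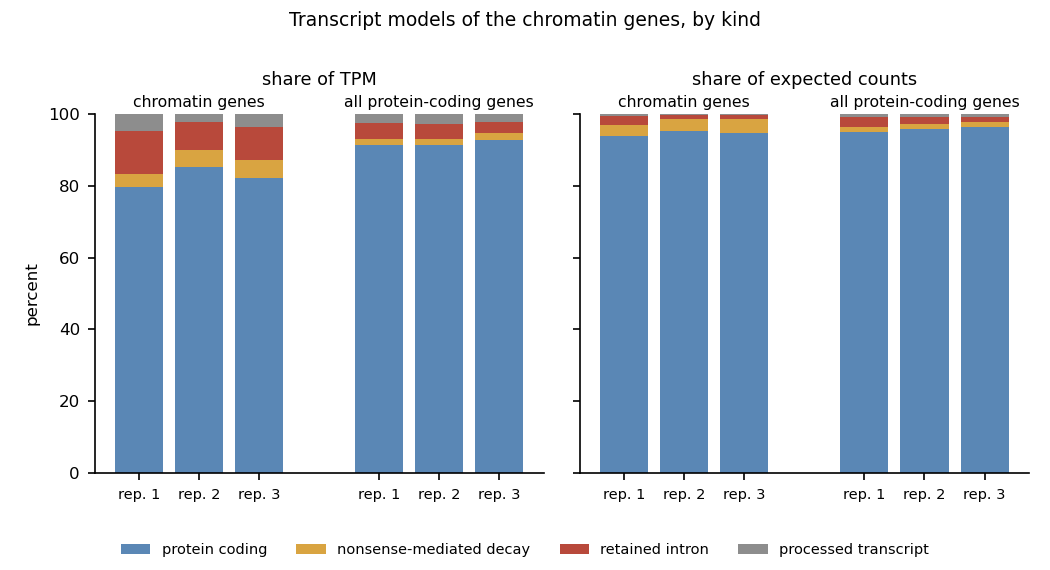
Share of transcript models by kind, in percent, for the chromatin genes (left bars of each panel) and all protein-coding genes (right bars), by library; left panel, share of TPM, right panel, share of expected counts. The chromatin genes have 79.7% to 85.4% of TPM in coding models, below the 91.3% to 92.9% of all protein-coding genes, and a much smaller gap in counts.

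Besides Crebbp, Kat2a and Kdm1a, 6 members had a further coding model with at least 20% of the TPM of the gene in every library and in both transcript tables. Chd4-203 held 38.4%, 43.5% and 37.7% beside Chd4-202, which has 60 more coding bases. Smarcc2-203 held 40.8%, 38.2% and 41.4% beside Smarcc2-201, at 53.2%, 53.6% and 53.3%, and carries 342 coding bases that the lead model lacks. Arid1b-207 held 39.8%, 50.9% and 54.4% beside Arid1b-203, and its coding sequence holds 6888 bases, against 5286 in Arid1b-203.

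The catalytic genes among them were split in the same way. Dnmt1-202, with 357 fewer coding bases than Dnmt1-201, held 32.8%, 40.9% and 30.5%. Ehmt2-201 held 20.1%, 33.8% and 23.1% beside Ehmt2-204, at 35.7%, 30.7% and 33.1%. It was ahead in replicate 2 alone, there also by the read-based table, at 39.8% against 34.7%. Tet3-203, with 405 more coding bases than Tet3-202 at the start of the coding sequence, held 25.9%, 34.4% and 28.3%. Short reads are assigned to such models by estimation, and the shares of Arid1b-207 were 62.9%, 68.3% and 78.5% in the read-based table, so its order with Arid1b-203 depends on the table. The same holds for Smarcc2-203, at 46.6%, 42.6% and 46.7% in the read-based table, where Smarcc2-201 had 38.9%, 33.5% and 38.4%.

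**Figure D5:**
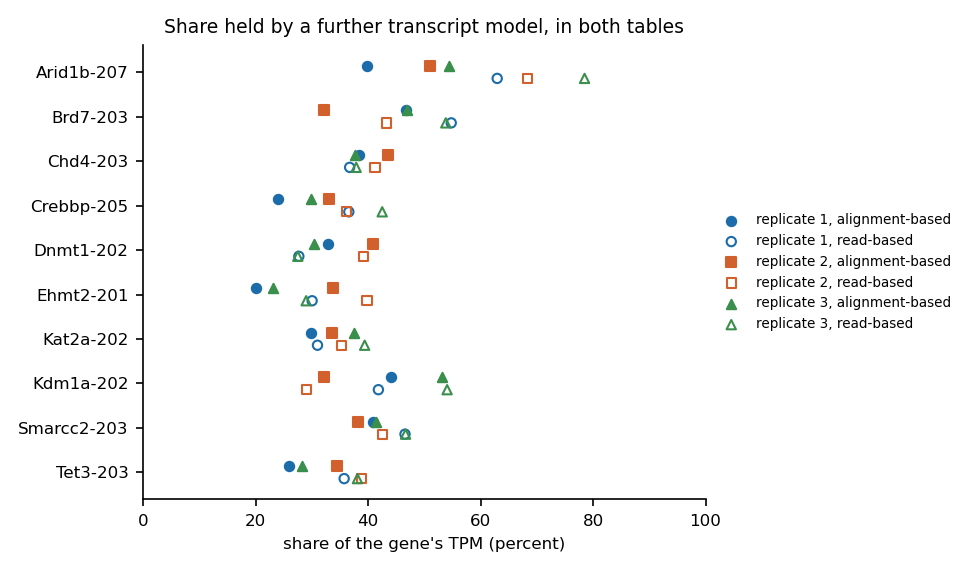
Share of the TPM of its gene, in percent, held by a further transcript model in 10 genes, by library (symbols) and by table (filled, alignment-based; open, read-based). Most lie between 20% and 55% in both tables, and Arid1b-207 is the widest, from 39.8% to 78.5%.

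Outside the 50 members, 101 further genes of the same complexes and families were read from a second list. Of these, 87 had at least 1 TPM in all 3 libraries and 40 had at least 10 TPM, and their median level was 8.83 ± 1.33 TPM over the 3 libraries. Among the highest were the methyl-CpG reader Mbd2 (63.1 ± 12.7 TPM), the helicase gene Chd9 (48.2 ± 10.2), the deacetylase gene Sirt2 (44.0 ± 4.67) and the corepressor gene Sin3b (38.0 ± 5.1). All 16 corepressor and NuRD genes and all 15 further methyltransferases of H3K4, H3K36 and H3K79 were at 1 TPM in every library, against 8 of 14 further SWI/SNF genes and 3 of 6 further genes of DNA methylation. Actl6b, a subunit of the neuronal SWI/SNF form, and the ISWI ATPase gene Smarca1 were at 0 counts throughout. The limit that a count of 0 sets is 0.0540 CPM in replicate 1, 0.141 CPM in replicate 2 and 0.0657 CPM in replicate 3.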

How the data were processed

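The libraries and their group were taken from the labels: 3 libraries, 1 group. The deposited gene tables hold, per the file headers, expected counts and TPM by the authors, with credibility bounds of TPM (used here as a score that describes 1 gene). A transcript table from alignments has the same units, and another made from the reads holds estimated counts and TPM as deposited. Build mm10 and GENCODE M21 are named in the description files. Neither the programs nor the use of strand in counting is stated there or in the labels. Expected counts as deposited are not normalized, and TPM was scaled per library by the authors.

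Of 81881 identifiers, 55536 matched the annotation and the rest were left out. Coding CPM is a count scaled to 1000000 counts of nuclear protein-coding genes, with an offset of 0.1 in log2 ratios. Log2 ratios between genes used TPM with a pseudocount of 0.01. For the coefficient of variation, edgeR 4.0.16 in R 4.3.3 was fitted with an intercept alone to rounded expected counts, with TMM and the package's filter on low counts. DESeq2 1.42.0 was an alternative, and the step was tested on simulated data. Tables and plots were made with pandas 2.3.3, numpy 2.4.6 and matplotlib 3.10.9 under Python 3.11.15. Transcript kinds come from the read-based table's identifiers. Coding differences and their bases come from the GENCODE M21 models and the mm10 sequence.

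The members, lists, pairs and alternatives were chosen with earlier results of these data known. Values in every library are given for the 20 members with the highest mean TPM, those below 1 TPM in any library, the 10 with the widest range and both members of each pair. Transcripts are named where a further model holds at least 20% of TPM in all libraries in both tables, and of the other chromatin genes the 5 highest, 1 of which is not reported here, and those at 0 counts. A count of 0 allows 3 counts, for counting error only. Of the members, 41 had whole counts in every library (within 0.005), 9 had reads divided between genes, and 18 overlap an exon on the opposite strand.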

Additional observations from a re-analysis of the deposited data

How the results depend on the processing

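No paired analysis was possible because there is 1 group. The count of members at 1 TPM in all libraries (48) stayed within 1.5 times under every alternative listed here: the read-based table, thresholds of 0.5, 2 and 5 TPM, rescaled TPM and leaving out 1 library. The median TPM over members was 11.3, and 5.90 in the read-based table, where coding genes took 20.5%, 21.4% and 7.95% of TPM. The median coefficient of variation (0.144) was 0.148 with no filter, 0.1498 with library sizes alone and 0.139 with DESeq2, and 0.147 to 0.1498 without 1 library. The coding share of the members' TPM (82.4%) was 76.7% in the read-based table and 94.6% in expected counts. For replicate 1 against the other libraries, the members' median log2 ratio (0.0459) reversed to -0.0694 with TMM, -0.0783 with DESeq2 size factors and -0.0357 without replicate 3 (-0.0357 to 0.134 without 1 library); the cause was not tested. Of 154 alternatives over the pair ratios, 128 moved by less than 1 SD, 25 by more, and 1 with a common sign in all libraries reversed: Suz12 over Eed, at 1.01 in counts not divided by length, where the gene lengths enter. Kdm6b over Ezh2 (0.04), whose libraries differ in sign, was -0.0096 without replicate 2 and -0.0134 without replicate 3. Coding models alone and leaving out a library in the ratios to the others were added after seeing the data. With 1 group and 3 libraries, neither effects of Lipid A nor outlying libraries were tested, and replicate 2 limits low genes.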
